A study of Mus musculus with 2 samples.

Results

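The genes described here are 10 genes of MHC class I antigen presentation in a mouse pancreatic cancer cell line, taken by symbol from a table of 55337 gene symbols: H2-K1, H2-D1, B2m, Tap1, Tap2, Tapbp, Psmb8, Psmb9, Nlrc5 and Erap1. All 10 were found, each as a single entry. The gemcitabine-resistant group was KPC2 cells under long-term culture with 260 ng/mL of the nucleoside analogue gemcitabine, and the wild type group was untreated KPC2 cells. Each group was 1 RNA-seq library, so every difference below describes these 2 libraries and no test between the conditions was possible. Both were grown in DMEM with serum, GlutaMAX and antibiotics, and the labels give pancreas as the tissue. Strain, genotype and clonal origin of the line are not given in the sources used here, while the annotation used is that of C57BL/6J, whose class I alleles may differ from those of the cells. The resistant cells alone had the drug in their medium, so its presence and a stable change of the cells cannot be told apart in any value below. Levels are FPKM, fragment numbers scaled to transcript length and library size, as read from the authors' deposited table.

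Nearly all nucleated cells show fragments of their own proteins at the surface on MHC class I molecules, where cytotoxic T cells inspect them. The proteasome cuts proteins into peptides, the TAP transporter carries these into the endoplasmic reticulum, tapasin and other chaperones load them onto a heavy chain paired with beta-2-microglobulin, and the aminopeptidase ERAP1 trims those that are too long. In epithelial cells many of these genes are kept low and rise with interferon-gamma, through factors that include IRF1 and the class I transactivator NLRC5, and tumours often lower part of the route.

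The 10 genes fell into a group above 1 FPKM in both libraries (H2-K1, H2-D1, B2m, Tapbp and Erap1) and a group below 1 FPKM in both (Tap1, Tap2, Psmb8, Psmb9 and Nlrc5). The sequence before the start of H2-K1 and of B2m is shown first, because the classical control elements of class I genes lie there. The sequences come from RefSeq (GRCm38.p6), which had an entry for 8 of the 10 genes. Each is the 250 bases before the RefSeq start, 5' to 3' on the strand of the gene. That start is the outermost one in GENCODE for H2-K1 and lies 1 base inside it for B2m. Capitals mark any of 4 short motifs, searched on both strands: AANNGAAA, the core bound by interferon regulatory factors; GGG and CCC set 5 bases apart, a form of the NF-kB site; TGACG, the core of the cyclic AMP response element; and CCAAT or its reverse ATTGG, bound by NF-Y.
H2-K1, chr17:34000348-34000597, minus strand: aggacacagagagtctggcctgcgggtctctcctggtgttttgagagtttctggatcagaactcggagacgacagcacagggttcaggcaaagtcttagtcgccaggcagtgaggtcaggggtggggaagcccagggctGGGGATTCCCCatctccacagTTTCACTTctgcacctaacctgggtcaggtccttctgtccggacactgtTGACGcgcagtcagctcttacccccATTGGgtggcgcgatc
B2m, chr2:122147437-122147686, plus strand: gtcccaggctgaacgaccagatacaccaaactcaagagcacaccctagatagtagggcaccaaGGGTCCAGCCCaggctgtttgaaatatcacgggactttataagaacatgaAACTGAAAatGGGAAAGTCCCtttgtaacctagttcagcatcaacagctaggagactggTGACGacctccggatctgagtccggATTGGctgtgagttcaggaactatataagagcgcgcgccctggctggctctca
Both windows held all 4 motifs. The 225 bases between the RefSeq starts of Tap1 and Psmb9, which lie head to head in RefSeq, held 3 of them, all but AANNGAAA. GENCODE has a longer Psmb9 transcript that covers these bases and overlaps Tap1. For H2-D1, Psmb8, Erap1 and Tapbp the RefSeq start lies 364, 474, 285 and 3579 bases inside the outermost GENCODE start, so their windows lie inside the GENCODE genes and what lies before the start depends on the annotation. Taken before the RefSeq start, the H2-D1 window held all 4 motifs, the Tapbp window 1 and the Psmb8 and Erap1 windows 0. Of 32851 windows of 250 bases before RefSeq starts, 21.3% held AANNGAAA, 12.2% the NF-kB-like form, 17.8% TGACG and 33.8% CCAAT. The motifs were chosen after the sequences and the levels had been seen, none overlapped another motif in the windows printed, and a match is a description of letters.

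The surface molecule itself is made of a heavy chain and beta-2-microglobulin, and its 3 genes were among the well expressed genes of both libraries. H2-K1, which encodes the K heavy chain (chromosome 17, 33996017 to 34000347 on GRCm38), stood at 94.0 FPKM in resistant cells and 91.6 FPKM in wild type cells. That is a log2 ratio of 0.04 on the log2(FPKM + 1) scale used for all ratios below, and the interval of the FPKM ratio of 1.03 ran over 1 (0.977 to 1.08). H2-D1, which encodes the D heavy chain (chromosome 17, 35262730 to 35267499), stood at 115.5 FPKM in resistant cells and 87.6 FPKM in wild type cells. Its log2 ratio was 0.39, an FPKM ratio of 1.32 (1.26 to 1.37). B2m, which encodes beta-2-microglobulin (chromosome 2, 122147686 to 122153083), stood at 160.7 FPKM in resistant cells and 83.0 FPKM in wild type cells. Its log2 ratio of 0.94 was the highest of the 10 on the log2(FPKM + 1) scale, an FPKM ratio of 1.94 (1.81 to 2.07). In FPKM ratio, Tap1 (10.1) and Tap2 (3.22), both below 1 FPKM in each library, stood higher. The intervals here and below are exact 95% intervals for counting error alone, from the fragments that the levels imply on the longest coding transcript, which were 2610 for B2m in the resistant library and 1394 in the wild type. They do not hold the spread between cultures, which 1 library per group cannot give.

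A gene is called measured where either library had 1 FPKM or more, which held for 12193 genes, and among these H2-K1 lay at the 92.0 percentile of levels in resistant cells and the 92.8 percentile in wild type cells. H2-D1 lay at the 93.5 and 92.5 percentiles in resistant and wild type cells, and B2m at the 95.3 and 92.0 percentiles. In resistant cells the order was B2m, H2-D1, H2-K1, with counting intervals that did not overlap (155 to 167, 112 to 119 and 90.8 to 97.4 FPKM). In wild type cells the order was H2-K1, H2-D1, B2m (88.5 to 94.9, 85.0 to 90.4 and 78.7 to 87.5 FPKM), and in that library the intervals of each gene and the next in order overlapped. The summed heavy chain level was 209 FPKM in resistant cells and 179 FPKM in wild type cells. Per FPKM of B2m that was 1.30 FPKM of heavy chain in resistant cells and 2.16 FPKM in wild type cells. As the RNA came from whole cultures, fewer cells with a transcript and less of it per cell cannot be told apart.

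No source used here says how fragments that match more than 1 class I gene were assigned, so the split between H2-K1 and H2-D1 is uncertain. Their longest coding transcripts were 90.6% identical over 1404 aligned bases. The other near-identical entries (at least 90% over at least 500 bases) were low: those of H2-K1 summed to 1.91 FPKM in resistant cells and 1.04 FPKM in wild type cells. With all 6 copies of H2-D1, H2-K1 among them, the total was 211.5 FPKM in resistant cells and 180.3 FPKM in wild type cells, a log2 ratio of 0.23. B2m had no such copy in the table.

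**Figure D1:**
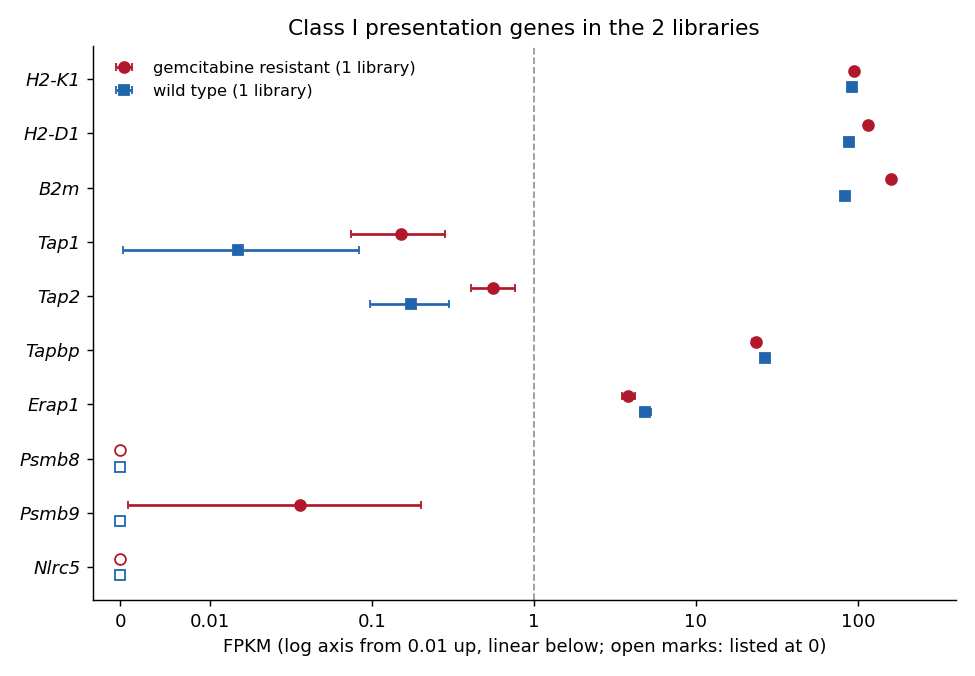
FPKM of the 10 class I genes in the gemcitabine-resistant library (red circles, upper mark of each pair) and the wild type library (blue squares, lower mark), with exact 95% counting intervals as bars, 1 library per group. The axis is logarithmic from 0.01 FPKM up and linear below, open marks are values listed at 0, and the dashed line is at 1 FPKM. H2-K1, H2-D1 and B2m stand between 83.0 and 160.7 FPKM, while Tap1, Tap2, Psmb8, Psmb9 and Nlrc5 lie left of the line in both.

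The TAP transporter is made of the products of Tap1 and Tap2, and both genes were read from few fragments. Tap2 (chromosome 17, 34203527 to 34216321) stood at 0.56 FPKM in resistant cells and 0.17 FPKM in wild type cells, about 43 fragments in the resistant and 14 in the wild type library. Its FPKM ratio was 3.22 with a counting interval of 1.70 to 6.28, while on the log2(FPKM + 1) scale, which understates low genes, it was 0.41. Tap1 (chromosome 17, 34187553 to 34197225) stood at 0.15 FPKM in resistant cells and 0.015 FPKM in wild type cells, about 10 fragments in the resistant library and 1 in the wild type, a ratio of 10.1 with an interval of 1.47 to 449. Both TAP genes were thus higher in the resistant library beyond counting error, from levels below 1 FPKM in each library. Summed, they came to 0.71 FPKM in resistant cells and 0.19 FPKM in wild type cells. In FPKM, H2-K1 was 168 times Tap2 in resistant cells and 527 times Tap2 in wild type cells.

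Loading and trimming genes were read at higher levels. Tapbp, which encodes tapasin, the chaperone that bridges TAP and the heavy chain (chromosome 17, 33915899 to 33929292), stood at 23.4 FPKM in resistant cells and 26.5 FPKM in wild type cells. Its log2 ratio was -0.17, an FPKM ratio of 0.883 (0.824 to 0.947). Erap1, the trimming aminopeptidase of the endoplasmic reticulum (chromosome 13, 74639568 to 74693201), stood at 3.83 FPKM in resistant cells and 4.86 FPKM in wild type cells. Its log2 ratio was -0.28, an FPKM ratio of 0.786 (0.698 to 0.886). Both were thus slightly lower in the resistant library, by more than counting error. Among measured genes, Tapbp lay at the 70.7 percentile in resistant cells and the 74.8 percentile in wild type cells. Erap1 lay lower, at the 26.8 and 30.4 percentiles in resistant and wild type cells. The authors' locus of Erap1 also holds Cast, at 46.9 FPKM in resistant cells and 40.7 FPKM in wild type cells, and that of Tapbp holds Zbtb22, and no source used here says how fragments were divided where such genes overlap.

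Psmb8 and Psmb9 encode inducible catalytic subunits that replace the constitutive ones in the immunoproteasome. Psmb8 (chromosome 17, 34197721 to 34201454) was listed at 0 in both libraries, where 1 fragment would have been worth 0.029 FPKM in the resistant and 0.028 FPKM in the wild type library. Psmb9 (chromosome 17, 34181987 to 34187764) stood at 0.036 FPKM in resistant cells, the worth of 1 fragment, and was listed at 0 in wild type cells. Nlrc5, the transactivator of class I genes (chromosome 8, 94434356 to 94527272), was listed at 0 in both libraries. For these 3 genes no fold is given. In GENCODE, whose positions are given for the genes, Tap1 overlaps Psmb9. The authors' table places this pair in 1 locus, so their few fragments could be shared. The authors' locus of Tap2 also holds Psmb8, Gm20496 and Gm15821, all listed at 0 in both libraries. By their positions, Tap2 and Psmb8 do not overlap.

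The constitutive subunits that Psmb8 and Psmb9 replace were abundant. Psmb5, the counterpart of Psmb8, stood at 92.2 FPKM in resistant cells and 100.2 FPKM in wild type cells. Psmb6, the counterpart of Psmb9, stood at 276.7 FPKM in resistant cells and 194 FPKM in wild type cells, a log2 ratio of 0.51. The third pair differed from the others in that its inducible member was read too: Psmb10 stood at 9.31 FPKM in resistant cells and 15.7 FPKM in wild type cells, beside its counterpart Psmb7 at 138.7 and 109 FPKM in resistant and wild type cells. Psmb10 thus made 0.067 of the Psmb7 level in resistant cells and 0.144 in wild type cells. Psme1 and Psme2, whose products form the interferon-inducible proteasome cap, were near equal in both libraries, at 63.6 and 24.9 FPKM in resistant cells and 65.8 and 24.2 FPKM in wild type cells. None of the 8 proteasome genes of the list differed by 2-fold or more, against 16.3% of all measured genes. With 8 genes, a count of 0 is not far from that share.

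**Figure D2:**
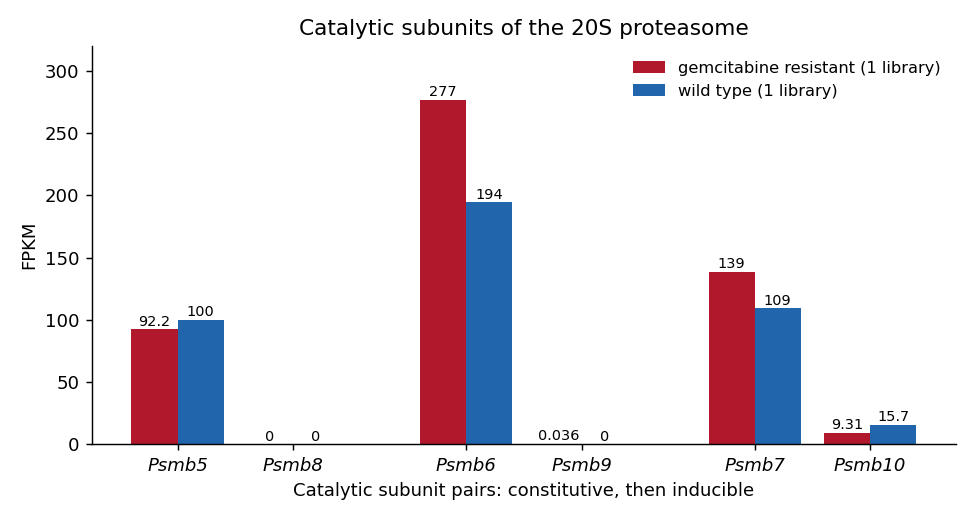
FPKM of the 3 constitutive catalytic proteasome subunits, each followed by its inducible counterpart, in the gemcitabine-resistant library (red, left bar) and the wild type library (blue, right bar), 1 library per group, with the values above the bars. Psmb8 is listed at 0 in both libraries and Psmb9 is at 0.036 FPKM in resistant cells and listed at 0 in wild type cells, while Psmb10 reaches 9.31 and 15.7 FPKM in resistant and wild type cells.

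At 1 FPKM or more, 5 of the 10 genes were measured, all 5 in both libraries. None of the 5 was at least 2-fold higher or lower in resistant cells (a log2 ratio of 1 in size), against a background over the 12193 measured genes of 7.9% higher and 8.37% lower by that line, 16.3% in all. With 5 genes, a count of 0 is near what those shares give. Their median log2 ratio was 0.04, against 0.02 over all measured genes. For B2m, the gene nearest to the line, 9.01% of measured genes had a higher ratio. In the authors' deposited table, 6 of the 10 genes were tested and none was called, against 0.404% of all entries that the authors tested. The lowest p-value among them in the authors' deposited table was 0.142 for B2m, with a q-value of 0.998. With 1 library per group, these values hold no measured spread between cultures, so the lack of a call does not show equal levels.

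Further genes of the route and around it were taken from 9 lists that held 77 measured genes. MHC class II, class I-like and interferon-related genes are among them, so the pooled values are not those of the route alone. Of these, 5 were at least 2-fold higher (6.49%) and 2 at least 2-fold lower (2.60%), against 7.9% and 8.37% of all measured genes. Their median log2 ratio was 0.06, against 0.02 over all measured genes. Among 10 genes of peptide loading and folding in the endoplasmic reticulum, all measured, the median was 0.21. Hspa5, which encodes the general chaperone BiP, stood alone beyond 2-fold, at 1144 FPKM in resistant cells and 279 FPKM in wild type cells (log2 ratio 2.03). Calr, which encodes calreticulin of the loading complex, stood at 536 FPKM in resistant cells and 440 FPKM in wild type cells. Its partner Pdia3 stood at 180.3 FPKM in resistant cells and 222 FPKM in wild type cells. The chaperones of class I loading thus lay within 2-fold while BiP did not.

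All 8 peptidase genes lay within 2-fold, with a median of 0.23. As 16.3% of all measured genes lay beyond that line, 0 of 8 is not far from the background. Lap3, leucine aminopeptidase, which is interferon-inducible, stood at 60.6 FPKM in resistant cells and 35.8 FPKM in wild type cells (log2 ratio 0.74). Ide, insulin-degrading enzyme, stood at 48.2 FPKM in resistant cells and 47.6 FPKM in wild type cells. Of 8 genes of class I turnover, 7 were measured, with Syvn1, a ubiquitin ligase of the endoplasmic reticulum, at least 2-fold lower (5.23 FPKM in resistant cells, 12.7 FPKM in wild type cells). Derl1, which helps retrotranslocate proteins from the endoplasmic reticulum, stood at 29.5 FPKM in resistant cells and 20.8 FPKM in wild type cells.

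**Figure D3:**
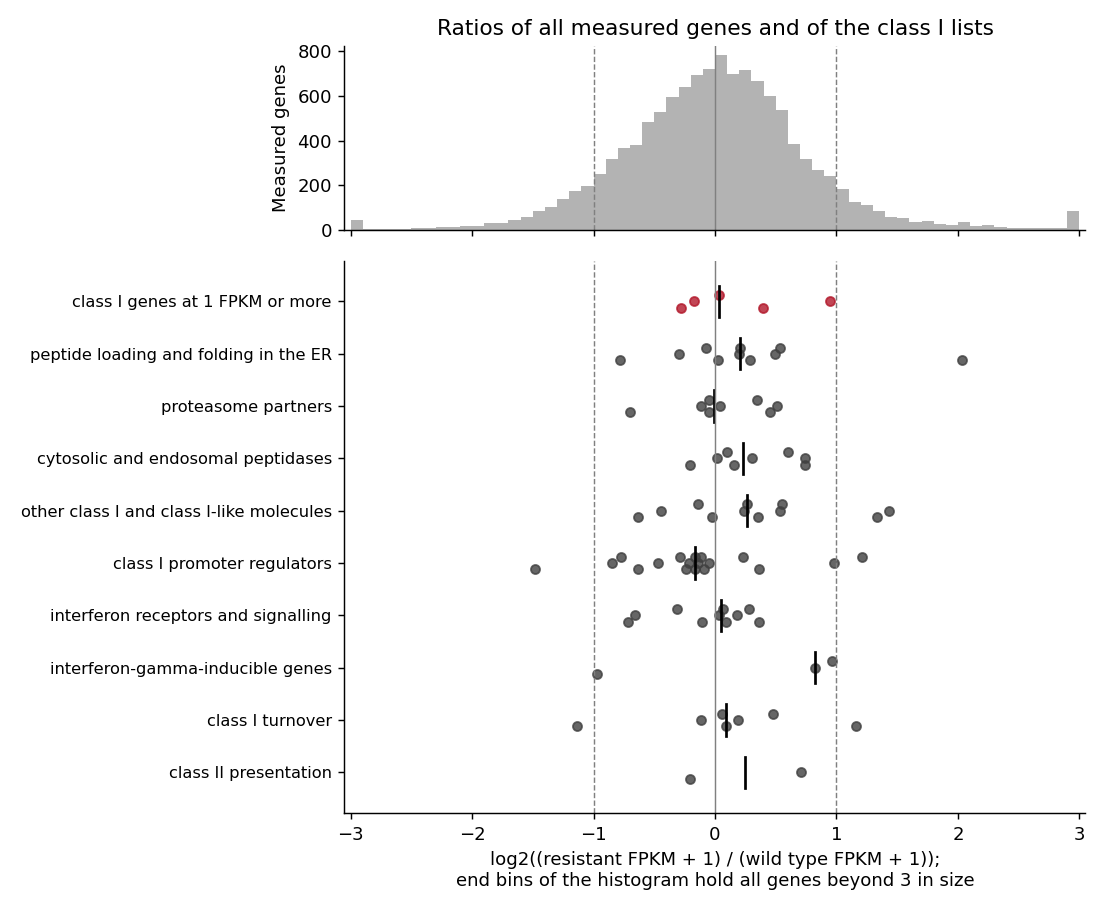
Top, histogram of log2((resistant FPKM + 1)/(wild type FPKM + 1)) over all 12193 measured genes, with values beyond 3 in size pooled in the end bins. Bottom, the same ratio for each measured gene of the class I genes (red) and of the 9 lists (grey), with list medians as black bars, 1 library per group, dashed lines at 2-fold and small vertical offsets for legibility. The 5 measured class I genes lie between -0.28 and 0.94, inside the lines.

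Other class I and class I-like genes were mostly low. Of 27 found in the table, 11 were measured, 16 were below 1 FPKM in both libraries, and 6 of these were listed at 0 in both. The non-classical gene H2-T23, which encodes Qa-1, a ligand of NK cell receptors, stood at 16.7 FPKM in resistant cells and 16.99 FPKM in wild type cells. Procr, the protein C receptor of class I-like fold, stood at 73.1 FPKM in resistant cells and 80.6 FPKM in wild type cells. At least 2-fold higher were Hfe, an iron regulator that pairs with beta-2-microglobulin (6.43 FPKM in resistant cells, 1.95 FPKM in wild type cells, log2 ratio 1.33), and Raet1d, a ligand of the activating receptor NKG2D (2.06 FPKM in resistant cells, 0.13 FPKM in wild type cells, log2 ratio 1.43). Raet1d belongs to a family of near-identical genes, so its level is uncertain. The MHC class II list was near empty, with 12 of 14 genes below 1 FPKM in both libraries and H2-Aa, H2-Ab1 and Ciita, the class II transactivator, listed at 0 in both. The 2 measured ones were the lysosomal genes Ctsl (143.5 FPKM in resistant cells, 87.4 FPKM in wild type cells) and Ifi30 (38.4 and 44.5 FPKM in resistant and wild type cells).

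Among 18 measured regulators of class I promoters the median log2 ratio was -0.16. Rela, the p65 subunit of NF-kB, was at least 2-fold lower, at 13.8 FPKM in resistant cells and 40.3 FPKM in wild type cells (log2 ratio -1.48). Irf1, the interferon regulatory factor that acts on class I and Tap1 promoters, stood at 4.11 FPKM in resistant cells and 8.21 FPKM in wild type cells (log2 ratio -0.85). Rfx5, which binds the X box of class I and II promoters with its partners, stood at 1.32 FPKM in resistant cells and 1.68 FPKM in wild type cells. Ezh2, the Polycomb methyltransferase that can silence class I pathway genes, stood at 78.3 FPKM in resistant cells and 80.9 FPKM in wild type cells, and Atf1, which binds cyclic AMP response elements, at 41.9 and 49.7 FPKM in resistant and wild type cells.

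The interferon receptors and their kinases were read at middling levels. All 10 measured genes of that list lay within 2-fold, with a median of 0.05. Of all measured genes 16.3% lay beyond 2-fold, so 0 of 10 is not far from the background. Ifngr1, a chain of the interferon-gamma receptor, stood at 45.6 FPKM in resistant cells and 40.0 FPKM in wild type cells. Jak1, a kinase of these receptors, stood at 38.9 FPKM in resistant cells and 30.0 FPKM in wild type cells. The interferon genes Ifng and Ifnb1 were listed at 0 in both libraries. Of 22 interferon-gamma-inducible genes, 19 were below 1 FPKM in both libraries, as were Psmb8, Psmb9, Tap1 and Tap2, and 9 were listed at 0 in both, among them Gbp4, Gbp5 and Iigp1. The highest were Bst2, which encodes tetherin (18.2 FPKM in resistant cells, 8.82 FPKM in wild type cells, log2 ratio 0.97), and the GTPase gene Irgm1 (4.82 FPKM in resistant cells, 10.4 FPKM in wild type cells, log2 ratio -0.97).

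Of the 10 genes, 7 lie on chromosome 17, and H2-K1 and H2-D1 mark the ends of a 1.26 Mb stretch of the MHC that holds Tap1, Tap2, Psmb8 and Psmb9. Between them lie 83 protein-coding genes of the table, of which 34 were measured. Their median log2 ratio was -0.12, with 2 genes at least 2-fold higher and 4 at least 2-fold lower. Over all measured genes the median was 0.02, with 7.9% higher and 8.37% lower. With 34 genes, both counts are near what those shares give. The higher ones were the sialidase gene Neu1 (80.4 FPKM in resistant cells, 22.8 FPKM in wild type cells) and H2-Ke6, also called Hsd17b8 (27.0 FPKM in resistant cells, 12.5 FPKM in wild type cells). The lower ones were Hspa1b (0.13 FPKM in resistant cells, 15.2 FPKM in wild type cells), the complement factor B gene Cfb (7.71 and 38.0 FPKM in resistant and wild type cells), D17H6S53E (2.41 and 8.71 FPKM in resistant and wild type cells) and Fkbpl (1.48 and 5.84 FPKM in resistant and wild type cells). Neu1 and Hspa1b, the highest and the lowest ratio of the stretch, were next to each other.

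**Figure D4:**
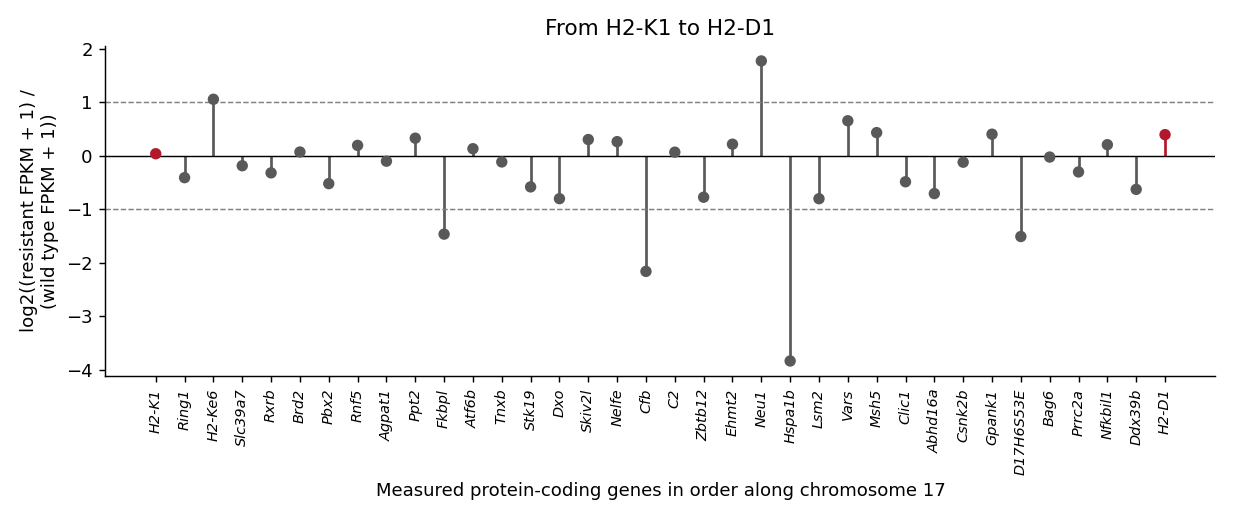
Log2 ratio of resistant over wild type cells, with 1 FPKM added to each value, for the 34 measured protein-coding genes between H2-K1 and H2-D1 (grey) and these 2 genes (red), in their order along chromosome 17, 1 library per group. Dashed lines mark 2-fold. Both red points lie within the lines, at 0.04 and 0.39, and the grey points range down to -3.84 at Hspa1b and up to 1.77 at Neu1.

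The labelled origin was checked on cell type markers, since leukocytes carry high class I and immunoproteasome levels. Of 7 epithelial markers 5 were measured. The keratin genes Krt8 and Krt19 stood at 1722 and 1738 FPKM in resistant cells and at 1176 and 1332 FPKM in wild type cells, and Krt18 at 1864 FPKM in resistant cells and 1123 FPKM in wild type cells, while Epcam and Cldn4 were below 1 FPKM in both. Krt7 was at least 2-fold higher, at 32.6 FPKM in resistant cells and 7.56 FPKM in wild type cells, and the E-cadherin gene Cdh1 stood at 164 FPKM in resistant cells and 206 FPKM in wild type cells. Of 13 leukocyte markers 10 were below 1 FPKM in both libraries, and the list summed to 33.6 FPKM in resistant cells and 38.6 FPKM in wild type cells, most of it Cd14 (25.7 FPKM in resistant cells, 36.8 FPKM in wild type cells). Without Cd14 the sum was 7.94 FPKM in resistant cells and 1.77 FPKM in wild type cells, with 4 of the other 12 markers higher and 4 lower in resistant cells. Ptprc, the defining leukocyte marker CD45, stood at 0.23 FPKM in resistant cells and was listed at 0 in wild type cells, while Cd3e was listed at 0 in both. The macrophage-rich gene Cd68 stood at 5.48 FPKM in resistant cells and 1.17 FPKM in wild type cells, the lysozyme gene Lyz2 at 1.53 FPKM in resistant cells and 0.36 FPKM in wild type cells, and Laptm5 at 0.67 FPKM in resistant cells and 0.036 FPKM in wild type cells. These and Ptprc lay in the direction of B2m and of the TAP genes, and their part in that difference was not tested. Cd14 apart, the 4 markers lower in resistant cells were Itgam, Adgre1, Csf1r and Tyrobp. All 4 were near the floor in both libraries, with at most 0.104 FPKM (Tyrobp in wild type cells). All 9 fibroblast and all 6 endothelial markers were below 1 FPKM in both libraries, summing to 0.24 and 0.15 FPKM in resistant cells and 0.34 and 0.015 FPKM in wild type cells. Of 6 acinar markers Cela1 alone was measured, at 1.48 FPKM in resistant cells and 4.38 FPKM in wild type cells.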

How the data were processed

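RNA from 2 KPC2 cultures was sequenced, 1 library per group. HISAT2, StringTie and build GRCm38 are named, without roles or versions, per the submitters' processing notes. The authors' deposited table gives 55468 entries with a value per library, read as FPKM because low values fall on whole-fragment steps. It also holds their log2 fold change, their test statistic (a score), and p-values and q-values, all made by the authors, per the file headers.

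The fragment steps were sought in single-transcript genes of 1000 to 8000 bases, after 160 fitted bases had been taken off the length. Of low values, up to 5.5 fragments, 93.8% of 1671 in the resistant and 93.0% of 1623 in the wild type library then lay within 0.1 of a whole fragment. On 1 kb of remaining length, 1 fragment was worth 0.0431 FPKM in the resistant and 0.0417 FPKM in the wild type library. The FPKM values summed to 1197230 in the resistant and 986361 in the wild type library, without 13 entries marked as failed or too deep, which were left out. Exact Poisson and, for ratios, exact binomial intervals at 95% rest on the rounded fragments and cover counting error only.

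Entries of 1 symbol were summed. Ratios are log2((resistant FPKM + 1)/(wild type FPKM + 1)), with a gene taken as measured where either library had 1 FPKM or more, and a line at 2-fold. No test was made. Of all entries, 55227 were found in GENCODE M21 (GRCm38), used for positions and coding transcript lengths of its basic set. Of the list symbols, 6 were not matched and 2 were matched by an older name. Named were the 10 genes, up to 4 genes per direction and list beyond 2-fold, the 2 highest genes of each list, and genes beyond 2-fold between H2-K1 and H2-D1. Other genes were named for their role, after their values were seen. A few list genes are not reported here. The genes and lists were chosen with earlier results of these data known. Copies were sought with BLAST 2.17.0+ among transcripts. Values were computed in Python 3.11.15 (pandas 2.3.3, numpy 2.4.6, scipy 1.17.1) and drawn with matplotlib 3.10.9, and the steps were tested on simulated data. Alternatives were pseudocounts of 0.1 and 5, no filter, a filter of 5 FPKM, rescaling to a median of 0 or to the upper quartile, protein-coding genes only and the highest entry per symbol. A pseudocount of 0.1 without filter was added after the data had been seen.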

Additional observations from a re-analysis of the deposited data

How the results depend on the processing

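No paired analysis was possible because each group is 1 library, and for the same reason none could be left out. At each of 8 other settings, the added one apart, 0 of the class I genes kept by the filter of that setting passed 2-fold in either direction. At a pseudocount of 0.1, Tap1 and Tap2 had log2 ratios of 1.12 and 1.27, but the filter of 1 FPKM left them out of that count. The log2 ratio of B2m ranged from 0.86 to 0.95 over all settings, that of H2-D1 from 0.31 to 0.40, and that of H2-K1 from -0.05, with the resistant library rescaled to the upper quartile, to 0.04. With a filter of 5 FPKM, which leaves out Erap1, the median of the class I genes was 0.22. At a pseudocount of 0.1 without filter, chosen after seeing the data, 2 class I genes were at least 2-fold higher, Tap1 (log2 ratio 1.12) and Tap2 (1.27), the class I median was 0.42, and 2624 of all genes were higher and 3197 lower. Over all genes, 1553 were at least 2-fold lower at a pseudocount of 0.1, and 428 were higher and 297 lower at a pseudocount of 5. At a pseudocount of 0.1, 3 interferon-gamma-inducible genes passed 2-fold in place of 0, Cd274 (1.13 FPKM in resistant cells, 0.20 FPKM in wild type cells) and Bst2 higher and Irgm1 lower, and 4 promoter regulators passed in place of 2. At a pseudocount of 5, 0 other class I genes passed in place of 2, 1 promoter regulator in place of 2 and 1 turnover gene in place of 2. Over all settings, 219 of the values for single class I genes and for the further lists stayed and 27 did not. That tally leaves out the class I median, the counts of class I genes past 2-fold and the values over all genes. Several of those left out moved, as given above. Staying meant within the counting interval or 0.1 on the log2 scale, for counts within 1.5 times. Part of this tally was fixed beforehand: Psmb8 and Nlrc5, at 0 in both libraries, could not move, and a filter cannot change the ratio of a gene. Tap1 and Tap2 were tallied as staying even past 2-fold, because their counting intervals are wide (FPKM ratios of 1.47 to 449 and 1.70 to 6.28). Depth limits Tap1 and Psmb9, read from 10 fragments or fewer, and 1 library per group limits every value.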
